A study of Mus musculus with 16 samples.

Results

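The cells compared here are p53-/-; Myc hepatoblasts that received no drug, only the vehicle dimethyl sulfoxide (DMSO), for 48 hours or for 7 days. The libraries were taken by their labels, 4 with DMSO for 48 hours and 4 with DMSO for 7 days, 8 of the 16 libraries of the study, whose other 8 are from cells given sorafenib, a kinase inhibitor used against liver cancer. The hepatoblasts carry changes in a pair of cancer genes, a knockout of p53, which restrains tumors, and a raised expression of Myc, which drives them, and the study uses this mouse line to stand for hepatocellular carcinoma. All 8 libraries share this genotype and the same high-glucose medium with serum, so that the comparison is one of baseline expression between the control cultures at both times. Each time point is its own set of cultures and libraries, and time, culture and batch cannot be told apart. The labels do not say that the 4 replicates of a group were separate cultures, so that p-values measure only the spread between these samples, which may be technical.

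Polyadenylated RNA was sequenced as stranded libraries, and the deposited values are counts of reads on each of 40840 genes. Total counts ranged from 24002696 to 28617629 at 48 hours (median 26379299.5) and from 23279342 to 29654546 at 7 days (median 28612782). Genes with at least 10 counts in total over the 16 libraries were tested, 20444 in all, and 20396 had fewer. Values below are normalized counts, that is, counts scaled by library total and TMM factor to the average depth of the 8 libraries. A count of 3, the floor at which a gene may rest on stray reads only, was worth 2.77 to 3.50 normalized counts, and covers counting error only. Fold changes are 7 days over 48 hours on the log2 scale, with their standard error (SE), and a gene was called where edgeR's quasi-likelihood test gave an FDR under 0.05, adjusted by Benjamini-Hochberg over all tested genes.

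Of the 8 libraries, 3 stood apart from the others in their RNA content. In replicates 2 and 3 at 48 hours and replicate 4 at 7 days, 3.06, 2.22 and 3.23% of all counts fell on 7 genes, here called structural RNA, whereas in the other 5 libraries this share was 0.356 to 0.911%. Among these 5 it was still higher at 48 hours, 0.693 and 0.911%, than at 7 days, 0.356 to 0.480%, so that a test of the 5 alone does not remove the difference in this share. The 7 genes were chosen after their values were seen. They include Rmrp, Rpph1 and Rn7sk, small RNAs that act as parts of ribonucleoproteins and carry no poly(A) tail, and mt-Rnr1 and mt-Rnr2, the ribosomal RNAs of mitochondria. The other 2, AY036118 and LOC118568312, held 79.5 to 94.1% of the counts on the 7 genes. RefSeq lists AY036118 as a long non-coding RNA and no annotation of LOC118568312 was used here, so that the kind of RNA behind most of these counts is not known here and the name fits only the 5 others. Because these libraries are in both groups, the test was also run with the 5 other libraries alone, 2 at 48 hours and 3 at 7 days. List counts from these 5 are given below for some lists and wherever they moved by over 1.5 times. Within a group, the log2 ratio between 2 libraries had an SD of 0.103 to 0.157 over the 10619 genes that averaged 100 normalized counts or more. Between the groups this SD was 0.516 to 0.573. The first principal component separated the 2 time points and held 92.53% of the variance, and the second, on which replicate 4 at 7 days was the lowest library, held 2.8%.

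**Figure D1:**
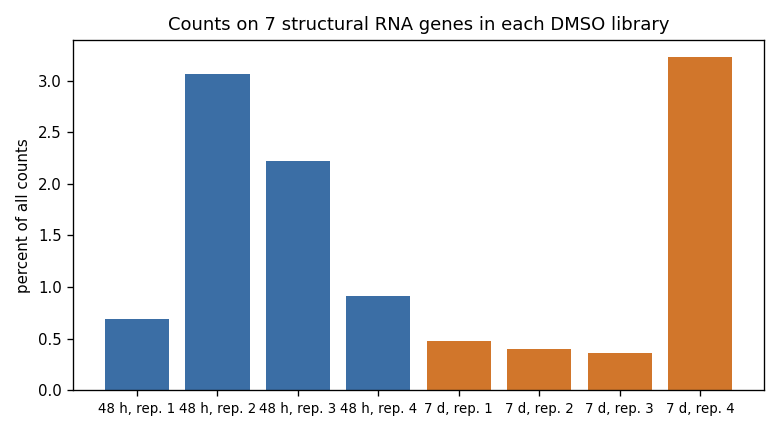
Percent of all counts on 7 structural RNA genes in each DMSO library, blue at 48 hours and orange at 7 days. Replicates 2 and 3 at 48 hours and replicate 4 at 7 days are at 2.22 to 3.23%, and the other 5 libraries are at 0.356 to 0.911%.

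Hepatoblasts are the progenitors of the embryonic liver that give rise to hepatocytes and to the cells of the bile ducts. Cultured cells adjust their transcription to oxygen, nutrients and the tension of their actin skeleton. Under low oxygen the HIF factors escape hydroxylation by the prolyl hydroxylases, bind to short DNA elements and raise genes of glycolysis, oxygen sensing and blood vessel growth. The coactivators YAP and TAZ move to the nucleus of spread cells under tension and act through the TEAD factors, and actin itself controls the cofactors of SRF, the factor of genes for the contractile skeleton. These programs are the background for the gene groups described here.

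Trp53, the gene of p53, had 3649.9, 3875, 3888 and 4431 normalized counts at 48 hours and 2493, 2190.0, 2299 and 2203 at 7 days. Counts were thus present in all 8 libraries, at a level that was lower at 7 days in every library, with no overlap between the groups. The log2 fold change was −0.79 ± 0.0390 (SE). Counts on a gene do not show which of its exons were deleted, and the files hold no exon counts, so that the knockout was not tested. Among genes that p53 activates, Cdkn1a, the inhibitor p21, was low, with 40.6 ± 8.18 normalized counts at 48 hours and 40.4 ± 7.72 at 7 days (SD, n = 4). The 18 tested members of the list of p53 and its targets together had 17300.8 to 18364.2 normalized counts in a library. Bax was the most abundant of them per kb, so that Cdkn1a does not stand for the list. Myc had 14005, 13668, 14092 and 14928 normalized counts at 48 hours and 16346, 16418, 15743 and 15478 at 7 days. The 7 days libraries were all above those at 48 hours, by a log2 fold change of 0.17 ± 0.0270 (SE), though the model of all 16 libraries did not call it. That model includes a sorafenib library with a known defect, described below.

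The label of hepatoblasts was compared with marker genes of the liver lineage and of other cell types. Of 24 plasma proteins that hepatocytes secrete, 12 had fewer than 10 counts over all 16 libraries, and 21 were below 100 normalized counts or untested. Alb, the gene of albumin, had 1 count over all 8 DMSO libraries. Hnf4a, a transcription factor that defines the hepatocyte lineage from the hepatoblast stage on, had 0 counts. Of 17 enzymes of mature hepatocytes, 13 had fewer than 10 counts over all libraries and only Gls2 reached a mean of 100 normalized counts. Afp, the fetal albumin and classic hepatoblast marker, had 0, 1, 0 and 0 counts at 48 hours and 11, 5, 10 and 14 at 7 days. The gene was thus at or below the floor at 48 hours and just above it at 7 days. Hence Alb, Hnf4a and Afp were at or near 0 in both groups, which goes against the label as far as these genes show.

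Some other genes of the early liver were abundant. Of 21 liver lineage transcription factors, 14 were below 100 normalized counts or untested, 5 of them with fewer than 10 counts over all libraries, and 3 had a mean of at least 1000. Of 19 hepatoblast, progenitor and bile duct markers, 13 had a mean of at least 100 normalized counts and 7 at least 1000, so that the markers do not all point the same way. Dlk1, a surface protein of hepatoblasts and of other embryonic cells, had 7716 ± 196 at 48 hours and 4034 ± 191 at 7 days normalized counts per kb of transcript (mean ± SD, n = 4). Gpc3, a fetal proteoglycan that returns in liver cancer, had 7674 ± 168 at 48 hours and 3752 ± 86.0 at 7 days on the same scale. Gata4 and Gata6, among the abundant liver factors, had means of 1909.9 and 1695 and of 1746 and 1825 normalized counts per kb at 48 hours and 7 days. Among mesenchymal transition genes, 13 of 15 had a mean of at least 100 normalized counts and 9 at least 1000. Their levels per kb at 48 hours and 7 days were 10325 and 17267 for Vim, the intermediate filament of mesenchymal cells, 7593 and 7684 for Col1a1 and 13658 and 8629 for Col3a1, both fibrillar collagens, and 7918 and 16158 for Fn1, fibronectin. The epithelial genes Cdh1 and Epcam had means of 62.5 and 80.9 and of 31.5 and 19.8 normalized counts at 48 hours and 7 days. Of 10 stellate cell and fibroblast markers, 8 were tested and 4 had a mean of at least 1000 normalized counts. None of 9 endothelial and 15 blood cell markers reached a mean of 100 normalized counts. Of the blood cell markers, Ptprc, which marks all white blood cells, had 4 counts over the 8 libraries and Adgre1, a macrophage marker, had 0, while Csf1r had 13.1 ± 4.15 normalized counts at 48 hours and 75.2 ± 11.2 at 7 days (SD, n = 4).

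**Figure D2:**
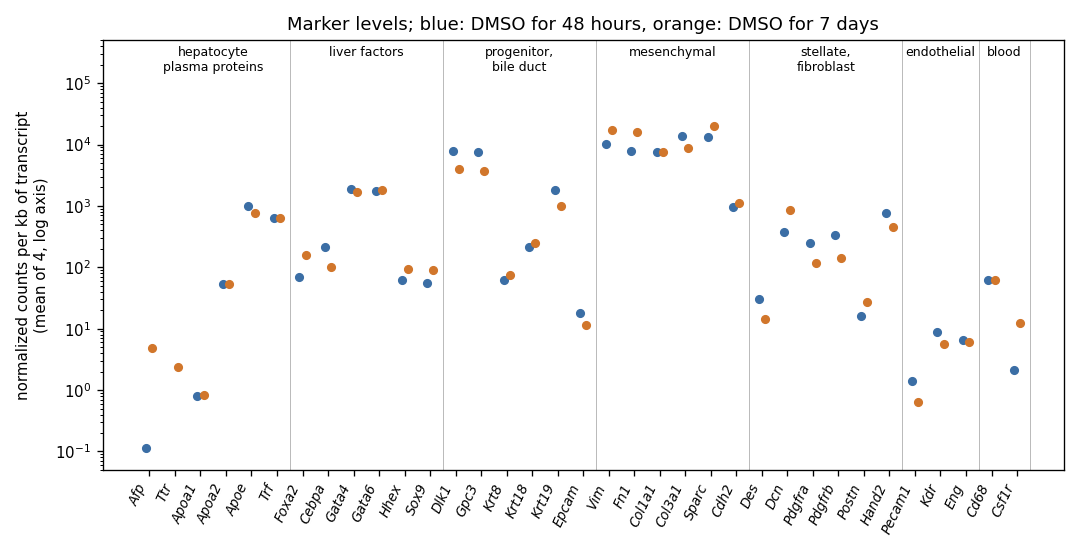
Marker genes by cell type, as mean normalized counts per kb of transcript on a log axis, blue at 48 hours and orange at 7 days. Gata4, Gata6, Dlk1, Gpc3 and mesenchymal genes are abundant, while Afp, Ttr, endothelial and blood markers lie low. Ttr at 48 hours had a mean of 0 and has no point.

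Levels per kb could be ranked for the 18139 tested genes with a known transcript length, which leaves out AY036118 and LOC118568312. Mitochondrially encoded messenger RNAs were not analysed here, so that the ranks hold only without them. The 20 highest over the 8 libraries included the elongation factors Eef1a1 and Eef2, 10 ribosomal proteins, the chaperone Hsp90ab1, the nucleolar protein Npm1, Actb, Ftl1, Eif5a and the glycolytic genes Pkm and Gapdh. Eef1a1 had 109466 ± 2485 at 48 hours and 93041 ± 952 at 7 days normalized counts per kb. H19, an imprinted long non-coding RNA of fetal tissues, had 131757 ± 3312 at 48 hours and 67906 ± 4521 at 7 days normalized counts per kb, the first of all ranked genes at 48 hours and the second, after Eef1a1, at 7 days. With the levels set by normalized counts without division by length, only 9 of these 20 genes were also among the 20 highest. Genes with many processed copies, such as the ribosomal proteins, Gapdh, Npm1 and Ftl1, share reads with these copies, and their values are uncertain to that extent.

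Between the control cultures, 11224 of 20444 tested genes (54.9%) differed, 5585 higher (27.3%) and 5639 lower (27.6%) at 7 days. A log2 fold change of 1 or more in size was reached by 2303 of them (11.3% of all tested genes), 918 higher and 1385 lower. The 4 values of each group did not overlap for 10353 genes (50.6%). The median log2 fold change was −0.00, with quartiles of −0.45 and 0.34. Among the 10619 genes that averaged 100 normalized counts or more, 8586 differed (80.9%), 4611 higher and 3975 lower. With the 5 libraries low in structural RNA alone, 9984 genes differed, 5021 higher and 4963 lower. Most differences were thus small and went in both directions, and a share of called genes in any group of genes has to be read against this high background. The background was 54.9% for all tested genes and 80.9% for the more abundant ones. A list whose share called lies near or between these is no result by that count alone.

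**Figure D3:**
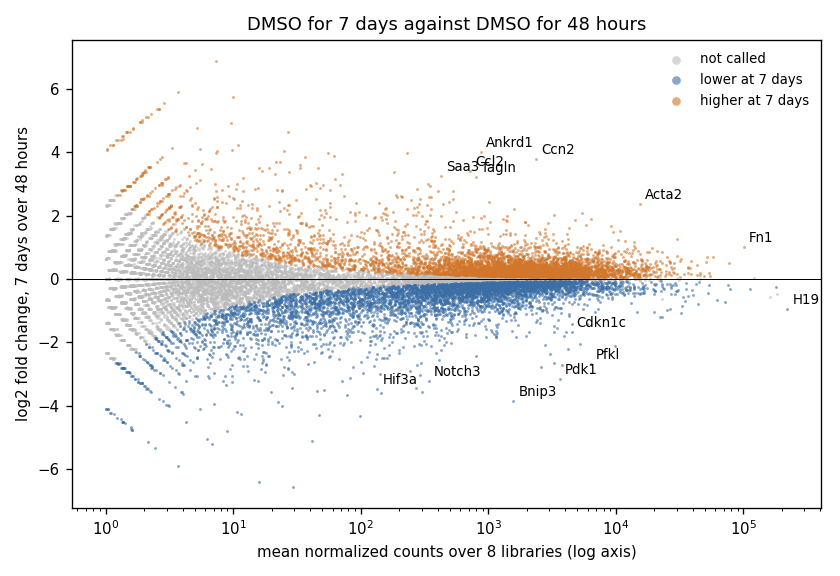
Log2 fold change of 7 days over 48 hours against the mean normalized counts over 8 libraries on a log axis, 1 point a gene, orange and blue for genes called higher or lower and grey for the others. Bnip3, Notch3, Pdk1 and Hif3a lie lowest among the named genes, and Ankrd1, Ccn2, Ccl2 and Saa3 highest.

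Of the called genes that averaged 100 normalized counts or more and whose groups did not overlap, the 12 with the largest decrease were Bnip3, Mfap4, Selenbp1, Hif3a, Kbtbd11, Notch3, Pdk1, Sema4g, Atp7b, Rec8, Ankrd37 and P4ha2. Their log2 fold changes ranged from −3.86 to −2.79. The 12 largest increases by the same rule were Ankrd1, Cemip, Ccn2, Ccl2, Lgals3, Saa3, Tagln, Hcn4, Ptprb, Ltbp2, Adcyap1r1 and Vcam1, from 4.02 to 2.78. Bnip3, Pdk1, Ankrd37 and P4ha2 are known targets of HIF, and Hif3a is a member of the HIF family. Ankrd1 and Ccn2 are known targets of YAP, while Ccl2, Saa3 and Vcam1 are known for their response to inflammatory signals. Genes with at least 20 counts in every library at 48 hours and at most 3 in every library at 7 days numbered 3, and no gene showed the reverse. They were Slc30a10, a manganese exporter, with 30, 29, 25 and 44 counts at 48 hours and 1, 0, 0 and 0 at 7 days, Aire, with 52, 63, 43 and 77 counts at 48 hours and 2, 0, 0 and 0 at 7 days, and Gm39529, with 65, 81, 66 and 116 counts at 48 hours and 2, 3, 3 and 1 at 7 days.

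The hypoxia genes listed here were lower at 7 days. As for all lists here, the members were chosen with earlier results of these data known, so that list counts and medians are a description and no independent test. All 19 tested members of the list of HIF targets fell, with a median log2 fold change of −1.29 against −0.00 for all tested genes, and 19 fell in the 5 libraries low in structural RNA. In bulk RNA, less RNA per cell and fewer cells that express a gene cannot be told apart. Oxygen was not measured in these data, and its part in the result was not tested. Bnip3, a mitochondrial protein of the autophagy of mitochondria (chr7:138490690-138511253 in GRCm39), had 2709.8, 2916, 3030.0 and 3069 normalized counts at 48 hours and 293, 172, 184 and 174 at 7 days. The groups lay far apart, although replicate 1 at 7 days was above the 3 others of its group. The level was 14.5-fold lower at 7 days, a log2 fold change of −3.86 ± 0.0681 (SE), with a Benjamini-Hochberg adjusted p of 2.53e-34 from edgeR's quasi-likelihood test.

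Pdk1, a kinase that inhibits pyruvate dehydrogenase (chr2:71703488-71734202), had 6271, 6446, 6865 and 6662 normalized counts at 48 hours and 945, 678, 685 and 673 at 7 days. Replicate 1 was again the highest at 7 days, and the groups did not overlap. The log2 fold change was −3.15 ± 0.0513 (SE, Benjamini-Hochberg adjusted p = 2.36e-35, edgeR's quasi-likelihood test). Vegfa, the growth factor of blood vessels, had 5635, 5391, 6670.3 and 6791 normalized counts at 48 hours and 2114, 1846, 1834 and 1966 at 7 days. Every library at 7 days was below every library at 48 hours, with a log2 fold change of −1.66 ± 0.0480 (SE). Of the oxygen sensors, the prolyl hydroxylases Egln3 and Egln1 fell, with log2 fold changes of −1.79 and −1.29. Collagen prolyl hydroxylases fell as well, P4ha2 with −2.79 and P4ha1 with −1.04. Further log2 fold changes were −2.90 for Ankrd37, −2.09 for Ndrg1, −1.79 for Fam162a and −0.93 for Car9, the carbonic anhydrase of hypoxic cells. The smallest decreases of the list were those of Bhlhe40 and Hilpda, with −0.51 and −0.39.

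The start regions of these genes were searched for ACGTG on both strands, the core letters to which HIF can bind, in RefSeq windows from 250 bases before to 50 bases after each start (GRCm38.p6). Of the 19 genes, 17 had a window, and 14 of these held the letters in at least 1 window. By windows this was 15 of 27 (55.6%), while 6447 of all 32851 windows (19.6%) held them. A match is a description of letters and not a bound site. The genes were listed as known targets of HIF, so that a higher share than in all windows can follow from that choice. The comparison does not bear on the change at 7 days. For 4 of the genes that fell, a stretch of 80 bases upstream of the start is shown because it holds the letters, with matches on either strand in capitals.
Bnip3 (chr7:138909571-138909650, minus strand, 144 to 65 bases before the start): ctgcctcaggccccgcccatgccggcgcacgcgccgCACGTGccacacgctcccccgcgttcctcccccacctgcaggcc
Ankrd37 (chr8:45999851-45999930, minus strand, 80 to 1 bases before the start): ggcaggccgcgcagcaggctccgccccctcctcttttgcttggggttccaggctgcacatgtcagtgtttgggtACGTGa
P4ha2 (chr11:54100809-54100888, plus strand, 115 to 36 bases before the start): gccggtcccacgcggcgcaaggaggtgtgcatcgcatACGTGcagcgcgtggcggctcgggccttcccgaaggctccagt
Egln3 (chr12:54204045-54204124, minus strand, 250 to 171 bases before the start): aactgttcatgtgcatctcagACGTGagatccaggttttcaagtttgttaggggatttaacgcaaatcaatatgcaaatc
In Bnip3 the letters are part of CACGTG, which reads the same on both strands, and each of the 3 others holds them once.

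Glycolysis genes moved in the same direction. Of 22 tested genes of glycolysis and lactate transport, 19 fell and 3 rose, with a median log2 fold change of −0.80, and the 5 libraries low in structural RNA gave 19 and 3. Pfkl, the liver form of phosphofructokinase, which commits sugar to glycolysis (chr10:77818084-77845922), had 10654, 10529, 11443 and 11618 normalized counts at 48 hours and 2224, 1551, 1592 and 1566 at 7 days. The lowest value at 48 hours was several times the highest at 7 days, and the log2 fold change was −2.68 ± 0.0573 (SE, Benjamini-Hochberg adjusted p = 1.1e-31, edgeR's quasi-likelihood test). Slc16a3, the lactate exporter MCT4, had 5374, 5424, 5729 and 6068 normalized counts at 48 hours and 1062, 803, 821 and 923 at 7 days. Here too the groups did not overlap, with a log2 fold change of −2.66 ± 0.0463 (SE).

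Along the pathway, the glucose transporter Slc2a1 fell by a log2 fold change of −1.43, the hexokinases Hk1 and Hk2 by −0.95 and −0.27, and the other phosphofructokinases Pfkp and Pfkm by −1.67 and −0.74. Further down, the values were −0.85 for Aldoa, −1.21 for Tpi1, −0.50 for Gapdh, −1.43 for Pgk1, −0.70 for Eno1, −0.71 for Pkm and −1.07 for Ldha, the lactate dehydrogenase subunit of glycolytic tissues. The 3 genes that rose were Pfkfb3, which makes the activator of phosphofructokinase, with 0.54, the lactate transporter Slc16a1 with 0.21 and Ldhb with 0.17, which the model of all 16 libraries did not call. The small list around the glucose sensors MondoA and ChREBP had 3 of 6 members lower and 2 higher, with Txnip, which lowers glucose uptake, at −0.46. Mitochondrial respiration genes were split, and the split moved with the scaling. Of 68 subunits of respiratory complexes and of ATP synthase encoded in the nucleus, 20 were higher and 28 lower, with a median log2 fold change of −0.04 that turned to 0.03 with an offset for GC content, which gave 29 higher and 23 lower. Scaling by total counts gave 11 higher and 34 lower, with a median of −0.11.

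**Figure D4:**
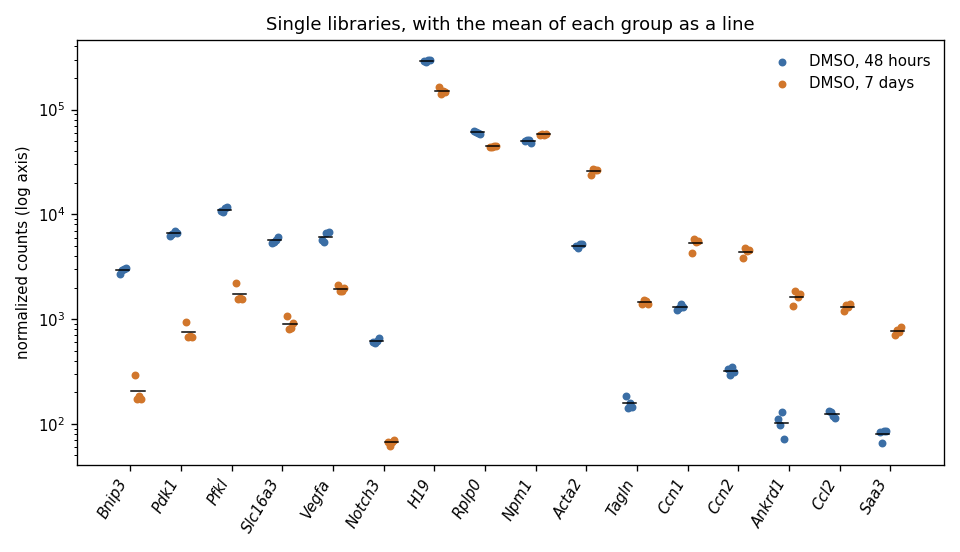
Normalized counts of 16 genes in each library on a log axis, blue at 48 hours and orange at 7 days, with the mean of 4 libraries as a line. Bnip3, Pdk1, Pfkl and Slc16a3 lie lower at 7 days, and Tagln, Ccn2, Ankrd1, Ccl2 and Saa3 higher, with no overlap between groups.

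Genes of the actin skeleton rose. All 15 of 15 tested SRF and actin genes were higher at 7 days, with a median log2 fold change of 1.28, as were 15 in the 5 libraries low in structural RNA. This list too was chosen with earlier results of these data known. Acta2, smooth muscle actin (chr19:34217737-34232990), had 4929, 4813, 5165 and 5202 normalized counts at 48 hours and 23903, 27278, 26582 and 26645 at 7 days. Every library at 7 days was above every library at 48 hours, 5.19-fold by the fitted means. Tagln, an actin-binding protein of smooth muscle, had 183, 142, 157 and 145 normalized counts at 48 hours and 1401, 1512, 1489 and 1397 at 7 days. Replicates of a group lay close together in comparison with the difference between groups, and the log2 fold change was 3.21 ± 0.0602 (SE, Benjamini-Hochberg adjusted p = 1.51e-33, edgeR's quasi-likelihood test). The log2 fold changes were 2.12 for calponin, Cnn1, 1.28 for tropomyosin, Tpm1, 1.17 for vinculin, Vcl, 0.69 for filamin, Flna, and 0.59 for Srf itself. Actb and Actg1, the actins of all cells, rose by 0.71 and 0.88, though the actins are alike in sequence and reads may be split between them.

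Targets of YAP and TEAD rose in 14 of 17 tested members and fell in 1, with a median log2 fold change of 0.82, and the 5 libraries low in structural RNA gave the same counts, while 7 other alternatives called 2 or 3 lower. Ankrd1, a protein of stretched muscle and a standard readout of YAP (chr19:36089352-36097506), had 112, 96.7, 129 and 72.0 normalized counts at 48 hours and 1326, 1868, 1627 and 1728 at 7 days. The groups did not overlap, and the log2 fold change was 4.02 ± 0.0939 (SE, Benjamini-Hochberg adjusted p = 1.87e-30, edgeR's quasi-likelihood test). Ccn2, a secreted matrix protein also named CTGF (chr10:24471333-24474900), had 332, 293, 346 and 311 normalized counts at 48 hours and 3837, 4785, 4420.4 and 4592 at 7 days. All values at 7 days lay far above those at 48 hours, with a log2 fold change of 3.79 ± 0.0525 (SE). Its relative Ccn1, also named CYR61, rose by 2.04, and F3, tissue factor, by 1.96. Among feedback regulators of the pathway, the kinase Lats2 rose by 1.02, Amotl2 by 1.07 and Ajuba by 0.82, whereas Amotl1 fell, with −0.34. Of the factors themselves, Tead1 rose by 0.90 and Yap1 by 0.17, and Wwtr1, the gene of TAZ, did not pass the test, with 5816 ± 131 normalized counts at 48 hours and 5672 ± 107 at 7 days (SD, n = 4), although it was called lower with an offset for GC content, with scaling by total counts and without replicate 1 at 48 hours.

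Windows around the starts were searched for GGAATG on both strands, the core letters of TEAD. Of the 14 YAP and TEAD targets that rose, 11 had a window and 9 of these held the letters. By windows this was 9 of 12 (75%), and 4817 of all 32851 windows (14.7%). These genes were listed as targets of YAP and TEAD, so that the higher share can follow from that choice and does not bear on the change at 7 days. For 3 of the genes, a stretch of 80 bases upstream is shown because it holds the match, in capitals on either strand.
Ankrd1 (chr19:36119925-36120004, minus strand, 160 to 81 bases before the start): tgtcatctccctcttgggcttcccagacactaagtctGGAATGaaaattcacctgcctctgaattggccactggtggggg
Ccn1 (chr3:145650046-145650125, minus strand, 140 to 61 bases before the start): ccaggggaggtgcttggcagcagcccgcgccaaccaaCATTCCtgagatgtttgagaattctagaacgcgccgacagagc
Amotl2 (chr9:102717702-102717781, plus strand, 102 to 23 bases before the start): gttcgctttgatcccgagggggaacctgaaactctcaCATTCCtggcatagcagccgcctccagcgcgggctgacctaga
Ankrd1 holds GGAATG on the strand of the gene, while Ccn1 and Amotl2 hold it on the other strand, read here as CATTCC. HIF and TEAD were 2 of 11 searches, each of called genes of 1 list, and the others are given here as the share of windows with the letters beside that of all windows. AP-1 letters were in 0 of 11 windows of early response genes (5.20% of all) and CRE letters in 1 of 11 (1.79%), and SRE letters in 0 of 9 windows of cholesterol genes (6.32%). ATF4 targets had AARE letters in 7 of 18 windows (3.95% of all), NRF2 targets ARE letters in 5 of 13 (12.4%), ribosome biogenesis genes the E-box in 4 of 24 (7.15%), interferon-stimulated genes their letters in 3 of 8 (8.56%) and mitosis genes NF-Y letters in 5 of 6 (37.4%). Plasma proteins had HNF4 letters in 0 of 3 windows (0.475%).

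Genes of inflammation and of early responses rose in part. Of 17 tested chemokines and NF-kB targets, 12 were higher and 0 lower, with a median log2 fold change of 0.79. Ccl2, the chemokine that attracts monocytes, had 134, 128, 118 and 114 normalized counts at 48 hours and 1187, 1368, 1308 and 1381 at 7 days. No library of one group reached the values of the other, and the log2 fold change was 3.41 ± 0.0649 (SE). Saa3, an acute-phase protein made outside the liver, had 83.2, 66.0, 85.8 and 85.0 normalized counts at 48 hours and 702, 778, 748 and 836 at 7 days. Replicate 2 was the lowest at 48 hours, and every value at 7 days was higher, with a log2 fold change of 3.26 ± 0.0820 (SE). Other chemokines were scarce, Ccl7 with 7.59 ± 2.12 normalized counts at 48 hours and 115 ± 14.3 at 7 days (SD, n = 4) and Ccl20 with 4.70 ± 1.21 normalized counts at 48 hours and 68.7 ± 21.0 at 7 days (SD, n = 4), and both rose. The complement gene C3 rose by a log2 fold change of 1.83, and Relb and Nfkb2, subunits of NF-kB, by 1.33 and 0.67. Interferon-stimulated genes had 7 of 32 members higher and 5 lower, near the median of all genes (3 lower in 3 alternatives), and their median of 0.00 ranged from −0.07 to 0.19 over the 20 alternatives. Of 13 tested genes of MHC class I presentation, 4 were higher and 3 lower, a share called near that of all tested genes and so no result about the list, among them B2m with −0.11, which was not called in the 5 libraries low in structural RNA, and Tapbp with 0.35. DESeq2, the model of all 16 libraries and the test without replicate 1 at 48 hours each called 2 of these genes higher. In the 5 libraries low in structural RNA 4 were higher and 0 lower, so that all 3 lower calls were lost.

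Among early response genes, 12 of 20 were higher and 6 lower. Jun, Klf6 and Klf4 rose, with log2 fold changes of 1.91, 1.82 and 1.79, while Fos fell, with −1.02, and Nr4a1 too, with −0.69. Genes that the ERK kinases induce, many of them feedback inhibitors, rose in 11 of 16 members and fell in 4 (3 in 11 alternatives), with a median of 0.85. The phosphatases Dusp4 and Dusp6 rose by 1.99 and 1.13, the inhibitor Spry4 by 1.28 and the factor Etv4 by 1.10, whereas Spry2 and Spred3 fell, with −0.26 and −0.61. In the TGF-beta and BMP list, 11 of 16 members rose and 4 fell, with a median of 0.54. Ltbp2, a matrix protein that resembles the binding proteins of latent TGF-beta, rose by 2.84, and the BMP targets Id1 and Id2 rose by 0.52 and 0.95, while Tgfbi fell, with −1.87.

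Targets of ATF4, the factor of the integrated stress response that restores amino acid supply, were higher in 20 of 28 members and lower in 3, with a median log2 fold change of 0.51. Slc7a11, which imports cystine for glutathione, had 85.3, 96.7, 103 and 95.1 normalized counts at 48 hours and 414, 491, 483 and 452 at 7 days. The groups did not overlap, with a log2 fold change of 2.28 ± 0.0852 (SE). Atf4 itself rose by 0.81, Atf3 by 2.01, Mthfd2 of the mitochondrial folate pathway by 1.43 and Asns, asparagine synthetase, by 0.67. Ddit4, an inhibitor of mTORC1 that both ATF4 and HIF can induce, went the other way, with 6478, 6248, 6451 and 6993 normalized counts at 48 hours and 1229, 859.8, 939 and 982 at 7 days. All its values at 7 days were below all those at 48 hours, with a log2 fold change of −2.72 ± 0.0501 (SE).

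NRF2 targets, genes of the defense against oxidants, rose in 12 of 19 members and fell in 5 (3 with an offset for GC content), with a median of 0.39. Srxn1 rose by 2.01, Hmox1, heme oxygenase, by 1.46 and Gclm, a subunit of the first enzyme of glutathione synthesis, by 1.10, whereas Gsta4 fell, with −0.96. Heat shock genes, most of them cytosolic, were higher in 12 of 14 members and lower in 0, with 0.50 for Hsp90aa1, a cytosolic chaperone, and 0.52 and 0.45 for Hspd1 and Hspe1, which form the chaperonin of mitochondria. Of 18 chaperones of the endoplasmic reticulum and genes of the unfolded protein response, 11 were higher and 4 lower, with Dnajb11 at 0.87 and Xbp1 at −0.47. Iron handling genes had 5 of 9 members higher and 4 lower. The ferritin subunits Fth1 and Ftl1 rose by 0.50 and 0.53, and the transferrin receptor Tfrc fell, with −0.35.

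Ribosome genes split by their role. Genes of ribosome biogenesis, the assembly work in the nucleolus, rose in 22 of 23 members and fell in 1, a call lost in 5 alternatives, with a median log2 fold change of 0.40. Rrp12 and Utp20, which process ribosomal RNA, rose by 1.31 and 1.01, and nucleolin, Ncl, by 0.50. The proteins of the finished cytosolic ribosome fell in 77 of 79 tested genes and rose in 0, with a median of −0.29, while an offset for GC content left 65 lower and gave 3 higher. In the 5 libraries low in structural RNA, 76 of them fell. Rplp0, a protein of the ribosomal stalk, had 62073, 60991, 59863 and 58651 normalized counts at 48 hours and 43913, 44239.8, 45307 and 45288 at 7 days. No value at 7 days reached the lowest at 48 hours, and the log2 fold change was −0.43 ± 0.0256 (SE).

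**Figure D5:**
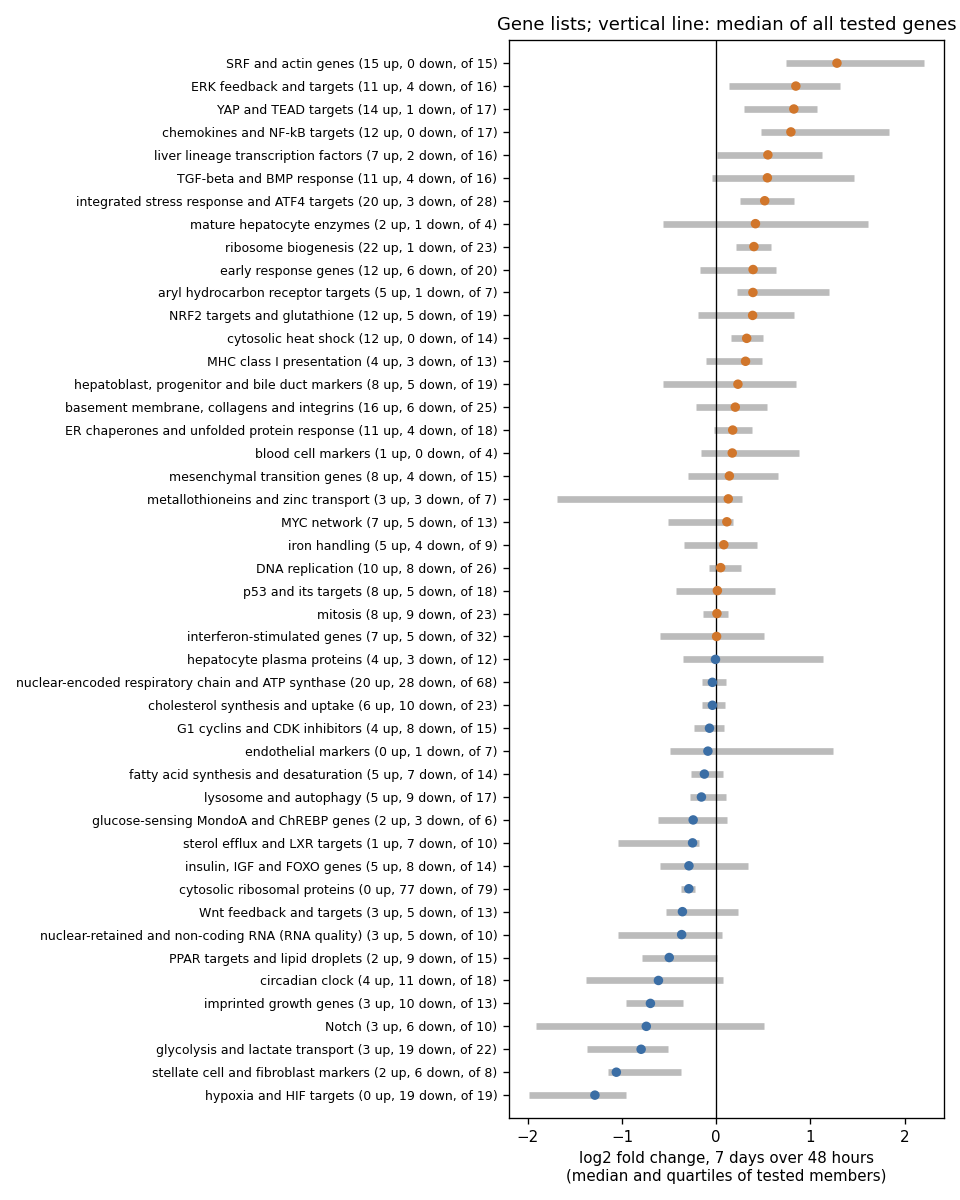
Median log2 fold change of 7 days over 48 hours for each gene list, for lists with at least 4 tested members, as a dot with its quartiles as a bar, and the median of all tested genes as a vertical line. Stellate and fibroblast markers, hypoxia and glycolysis genes have the lowest medians, and SRF and actin, ERK and YAP genes the highest.

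Notch genes were lower in 6 of 10 members and higher in 3, with a median of −0.74. The receptor Notch3 had 608, 588, 615 and 664 normalized counts at 48 hours and 66.5, 61.8, 67.1 and 70.3 at 7 days. The groups did not overlap, and the log2 fold change was −3.22 ± 0.0832 (SE). The target Hey1 fell by a log2 fold change of −1.92, while the target Hes1 and the ligand Jag1 rose, with 0.59 and 1.06. Wnt feedback genes and targets had 5 of 13 members lower and 3 higher, with Lef1 at −0.87 and Nkd1 at 0.49.

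Genes of the circadian clock fell in 11 of 18 members and rose in 4, with a median of −0.61. In the 5 libraries low in structural RNA 10 were lower and 3 higher, with a median of −0.39, and an offset for GC content left 9 lower, with a median of −0.45. Dbp, a factor driven directly by the clock, had 357, 308, 341 and 302 normalized counts at 48 hours and 75.8, 72.9, 54.0 and 74.3 at 7 days. Its values at 7 days were all lower, with a log2 fold change of −2.24 ± 0.102 (SE). Per3 and Ciart, which restrain the clock, fell by −1.46 and −1.48, whereas the activators Clock and Arntl rose, with 0.53 and 0.52. The time of day at collection is not given in the sources used here, and its part in the result was not tested.

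Imprinted growth genes, expressed from 1 parental copy and high in fetal tissue, fell in 10 of 13 members and rose in 3, while 13 of the 20 alternatives called 2 higher, with a median of −0.70. H19 had 289204, 282912, 293979 and 300216 normalized counts at 48 hours and 164435, 140949, 148613 and 147109 at 7 days. The values of both groups were well separated, and the log2 fold change was −0.96 ± 0.0290 (SE). Igf2, the growth factor beside H19, fell by −0.54, Meg3 by −1.82, Zim1 by −1.56 and Peg3 by −0.77, while Mest rose, with 0.69. Zim1 and Peg3 are neighbours, and reads of overlapping transcripts cannot be told apart. Among genes of insulin, IGF and FOXO, 8 of 14 were lower and 5 higher. Pik3ip1 and Ccng2, known FOXO targets, fell by −1.80 and −1.60, and the binding protein Igfbp3 rose, with 72.6, 82.8, 61.6 and 66.5 normalized counts at 48 hours and 163, 209, 212 and 217 at 7 days and no overlap.

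Proliferation genes moved in both directions, with splits that depended on the model. Of 26 DNA replication genes, 10 were higher and 8 lower, with a median of 0.05 (−0.02 to 0.08 over the 20 alternatives). An offset for GC content, alone or with the replicate block, gave 14 higher and 3 lower. Mitosis genes were higher in 8 and lower in 9 of 23 members, and their median of 0.01 ranged from −0.06 to 0.02. The nucleotide reductase genes Rrm1 and Rrm2 rose by 0.49 and 0.51, and Nusap1, a protein of the spindle, fell, with −0.59. Among G1 cyclins and CDK inhibitors, 4 of 15 were higher and 8 lower, with a median of −0.07 (−0.14 to 0.01 over the alternatives). Cdkn1c, an imprinted CDK inhibitor, had 6861, 6616, 7047 and 6779 normalized counts at 48 hours and 2386, 2032, 2142 and 2079 at 7 days. The groups did not overlap, with a log2 fold change of −1.66 ± 0.0324 (SE). The list of p53 and its targets had 8 of 18 members higher and 5 lower, and its median of 0.01 ranged from −0.05 to 0.18, lowest with total counts and highest with an offset for GC content. Aen and Plk2 rose by 1.36 and 0.97, and Bbc3 and Sesn1 fell, with −1.38 and −0.91. In the MYC network, 7 of 13 members rose, among them Mycn with 1.24, and 5 fell, among them the MYC antagonists Mxi1 and Mnt with −0.91 and −0.55.

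In the test of the 8 libraries, each lipid list had more members lower than higher. The split of fatty acid synthesis turned with an offset for GC content. Cholesterol synthesis and uptake genes were higher in 6 and lower in 10 of 23 members, with a median of −0.04 (−0.11 to −0.00 over the alternatives) and Dhcr7 at −0.66. Of 14 genes of fatty acid synthesis and desaturation, 5 were higher and 7 lower, and the median of −0.13 ranged from −0.19 to 0.01. Total counts and the model of all 16 libraries each left 3 of these higher. An offset for GC content, with and without the replicate block, gave 6 higher and 5 lower. Me1, malic enzyme, rose by 0.99, and Acss2, which makes acetyl-CoA from acetate, fell, with −0.52. Sterol efflux and LXR targets had 1 of 10 members higher, Abca1 with 1.02, and 7 lower, with a median of −0.25 (−0.37 to −0.15). Of 15 PPAR targets and lipid droplet genes, 2 were higher (4 with an offset for GC content or without replicate 4 at 7 days) and 9 lower, with a median of −0.50 and −0.57 for Cpt1a, the gate of fatty acids into mitochondria. Lysosome and autophagy genes were lower in 9 and higher in 5 of 17 members, with a median of −0.16. The metallothionein and zinc list had 3 of 7 members higher and 3 lower, with −1.05 for Mt1 and 1.02 for the zinc exporter Slc30a1. Of 7 tested targets of the aryl hydrocarbon receptor, 5 were higher and 1 lower, with 1.34 for Cyp1b1.

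Matrix genes changed in both directions. Of 25 genes of basement membranes, collagens and integrins, 16 were higher and 6 lower, with a median of 0.20. Only 4 were lower in 9 of the 20 alternatives, and the median ranged from 0.14 to 0.35. Col18a1, the source of endostatin, had 8994, 8209, 8544 and 8218 normalized counts at 48 hours and 2329, 1983, 1921 and 1995 at 7 days. All values at 7 days were lower, with a log2 fold change of −2.05 ± 0.0369 (SE). The chains of collagen IV rose, Col4a1 with 0.56 and Col4a2 with 0.54, as did the proteoglycan Hspg2 with 0.65. Among mesenchymal transition genes, 8 of 15 were higher and 4 lower. Fn1 had 63514, 66265, 66788 and 69792 normalized counts at 48 hours and 131776, 139449, 135796 and 136552 at 7 days. The groups did not overlap, with a log2 fold change of 1.03 ± 0.0263 (SE). Vim and Sparc rose by 0.74 and 0.56, while Mmp2 and Col3a1 fell, with −1.67 and −0.66, and Col1a1 had 45027 ± 1212 normalized counts at 48 hours and 45567 ± 1133 at 7 days (SD, n = 4), with no call unless an offset for GC content was used, which put it higher.

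Of the lineage lists, liver transcription factors and plasma proteins had shares of called genes near the 54.9% of all tested genes, and endothelial and blood cell markers lower shares, so that their counts are no result about these lists. Stellate cell and fibroblast markers fell in 6 of 8 tested members and rose in 2, with a median of −1.06, and the PDGF receptors Pdgfra and Pdgfrb fell by −1.06 and −1.21, while Dcn, decorin, rose by 1.20. Hepatoblast, progenitor and bile duct markers were higher in 8 and lower in 5 of 19 members (6 higher and 8 lower with total counts). Dlk1 had 35519, 33854, 33857 and 35199 normalized counts at 48 hours and 19267, 17575, 18184 and 17349 at 7 days. The groups did not overlap, and the log2 fold change was −0.94 ± 0.0291 (SE). Gpc3 and Krt19 fell as well, with −1.03 and −0.84, whereas Krt7 and Met, the receptor of hepatocyte growth factor, rose by 0.96 and 1.00. Of 16 tested liver lineage transcription factors, 7 were higher and 2 lower (5 to 8 higher and 1 to 3 lower over the alternatives), with 1.20 for Foxa2, 0.60 for Cebpb and −1.09 for Cebpa. Hepatocyte plasma proteins had 4 of 12 tested members higher and 3 lower, with a median of −0.01 (−0.23 to 0.17 over the alternatives), and mature hepatocyte enzymes 2 higher and 1 lower of 4. When at least 10 counts in every DMSO library were required, no plasma protein and no blood cell marker were called higher, and 1 enzyme was. Endothelial markers were lower in 1 and higher in 0 of 7 tested members, and blood cell markers higher in 1 of 4. The 5 libraries low in structural RNA had 1 enzyme and 2 blood cell markers higher, as did those without replicate 3 at 48 hours for the blood cell markers, and 0 endothelial markers lower. With an offset for GC content, or without replicate 4 at 7 days, 1 endothelial marker was higher.

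RNAs that stay in the nucleus or are not translated, listed as a sign of RNA quality, were higher in 3 and lower in 5 of 10 members, with a median of −0.37 (−0.54 to −0.21 over the alternatives). Malat1 fell by −0.11, which the model of all 16 libraries did not call, and Neat1 rose by 0.87. Rn7sk had 208, 1132, 1051 and 274 normalized counts at 48 hours and 136, 84.9, 52.2 and 1001 at 7 days. Its highest values were those of the 3 libraries rich in structural RNA, and the groups overlapped. Rn7sk and Rpph1 were called lower, but not with DESeq2, an offset for GC content, all 16 libraries or at least 10 counts in every DMSO library, which left 2 or 3 of the list lower. Both calls were also lost without replicate 2 or 3 at 48 hours and without replicate 1, 2 or 3 at 7 days, which left 3 lower. Rmrp was not called, but was lower without replicate 1 or 4 at 48 hours, without replicate 4 at 7 days, in the 5 libraries low in structural RNA and with limma, total counts, the replicate block with and without the GC offset, and no filter beyond 1 count. Over those 10619 more abundant genes, the median log2 fold change of a chromosome with at least 20 genes ranged from −0.07 on chromosome 7 to 0.09 on chromosome 18. For genes with a known transcript, the tenth with the lowest GC content had a median of 0.08 and the tenth with the highest −0.12. The tenth with the shortest transcripts had a median of −0.05 and that with the longest 0.14. The part of GC content and length in the results was tested only by the offset for GC content.

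The same 48 hours and 7 days can be compared in the cells that received sorafenib. In the model of all 16 libraries, 8120 genes (39.7%) differed between sorafenib for 7 days and for 48 hours, and for 7515 genes (36.8%) the effect of time differed between sorafenib and DMSO. Replicate 2 of sorafenib for 48 hours was known beforehand to have lowered counts over part of the genome. It would widen the spread shared in this model, and both numbers include it. Of the 12 largest decreases in the vehicle cells, 8 were also lower at 7 days with sorafenib and 4 were not called, and for 11 the effect of time differed. Of the 12 largest increases, 5 were higher with sorafenib too, 5 were lower and 2 were not called, and for all 12 the effect of time differed. These genes were chosen for large changes with DMSO, which enter the difference, so that the choice favors a difference against the DMSO change and these counts are only a description. Without replicate 2 of sorafenib for 48 hours, the 8 and the 5 genes with the same direction were again 8 and 5 in number. Bnip3 had a log2 fold change of −0.02 with sorafenib, against −3.86 with DMSO, and Ankrd1 had 0.70 against 4.02.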

How the data were processed

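The authors deposited counts of reads per gene for 16 libraries, with no normalization, made with the Illumina Stranded mRNA Prep kit. Their processing notes name STAR 2.7.1a, featureCounts 2.0.6 and the mouse build GRCm39. The strand setting and the gene annotation of the counting are not given in the sources used here, so that overlapping, antisense and near-identical genes are uncertain. The 8 DMSO libraries entered 1 edgeR model (edgeR 4.0.16 in R 4.3.3, quasi-likelihood test, TMM factors, no block) over 20444 genes with at least 10 counts in total over 16 libraries. A gene was called at an FDR under 0.05 (Benjamini-Hochberg). Normalized counts are counts divided by effective library size and multiplied by its geometric mean in the 8 libraries. Counts per kb used the Ensembl canonical transcript, and positions come from GENCODE vM39. The models were also run on simulated data, but the outcome is not reported here and no value given here rests on it.

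Named genes were the 12 largest increases and decreases of called genes that averaged 100 normalized counts or more and had no overlap, up to 4 members by change and 2 by level in each gene list, lineage markers, the 20 highest genes per kb, and genes with at least 20 counts in every library of 1 group and at most 3 in every library of the other. Further list members and the 7 structural RNA genes were chosen after their values were seen. The values of 2 list members are not reported here. The members and lists were chosen with earlier results of these data known. Of 47 lists, 46 had tested members, and mitochondrially encoded messenger RNAs were not analysed here.

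Alternatives were DESeq2 1.42.0, its size factors, total counts only, TMM without mitochondrially encoded genes, limma 3.58.1 (voom with sample weights), a GC offset, the replicate number as a block with and without that offset, all 16 libraries, no filter beyond 1 count, at least 10 counts in every DMSO library, and each of 8 libraries left out. The TMM setting could leave out only ribosomal and transfer RNAs of mitochondria, because their messenger RNAs were not found under the symbols used. It is thus no check on those messenger RNAs. The 5 libraries low in structural RNA were added after the data were seen. Replicates were compared for duplicates. The lowest mean chi-square per gene between 2 libraries of a group was 1.94, against 1 for counting error.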

Additional observations from a re-analysis of the deposited data

Results flagged for a closer look

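Some values lay far from the 3 others of their group. A value is given here where the gap between the highest or lowest library and its nearest neighbour took up most of the range of the group, which chance gives in about 1 of 20 groups of continuous values. Of 394 groups of 4 values, 36 had such a value. Those of genes are normalized counts. At 48 hours, replicate 1 had 11640.2 for Col4a2 (11009 to 11069.9 in the others), 1098 for Gclm (969 to 985 in the others), 397 for Hilpda (446 to 456 in the others) and 8909 for P4ha1 (9382 to 9443 in the others). At 48 hours, replicate 2 had 0.930 for Afp (0 in the others) and 66.0 for Saa3 (83.2 to 85.8 in the others). At 48 hours, replicate 3 had 23231 for Vim (22384 to 22494 in the others). At 48 hours, replicate 4 had 45899 for Actb (43324 to 43634 in the others), 15612 for Actg1 (14406 to 14592 in the others), 2999.9 for Mnt (2591 to 2624 in the others) and 358 for Mycn (391 to 397 in the others). At 7 days, replicate 1 had 2.33 for Aire (0 in the others), 293 for Bnip3 (172 to 184 in the others), 395 for Cemip (442 to 450.2 in the others), 23496 for Col4a1 (24889 to 25009 in the others), 971 for Egln3 (848 to 866 in the others), 27359.7 for Eno1 (26489.8 to 26576 in the others), 719.5 for Gsta4 (598 to 610.3 in the others), 163 for Igfbp3 (209 to 217 in the others), 945 for Pdk1 (673 to 685 in the others), 34758 for Peg3 (31318 to 31900.1 in the others), 2224 for Pfkl (1551 to 1592 in the others), 56068 for Pkm (53881 to 54174 in the others), 1.17 for Slc30a10 (0 in the others), 1720.0 for Txnip (1672 to 1677 in the others) and 36359.9 for Vim (38232 to 38536 in the others). At 7 days, replicate 2 had 332 for Nkd1 (369 to 377 in the others) and 19947 for Tead1 (19100 to 19240.2 in the others). At 7 days, replicate 3 had 54.0 for Dbp (72.9 to 75.8 in the others). At 7 days, replicate 4 had 3888 for Cyp1b1 (3916 to 3919 in the others), 29.1 for Rec8 (21.2 to 22.2 in the others), 1143 for Rmrp (18.6 to 93.3 in the others), 1001 for Rn7sk (52.2 to 136 in the others) and 858 for Rpph1 (75.5 to 128 in the others). The values of Afp, Aire and Slc30a10 are 1 or 2 counts against 0, so that stray reads suffice for them and the rate of 1 in 20 does not apply. They are 3 of the 36. Replicate 1 at 7 days held 15 of these values, Aire and Slc30a10 included, several of them of hypoxia and glycolysis genes, and the groups of Bnip3, Pdk1 and Pfkl still did not overlap. In replicate 4 at 7 days, structural RNA took 3.23% of all counts (0.356 to 0.480% in the 3 others), and the 10 highest genes took 6.26% (3.83 to 3.87% in the 3 others).

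For 23 of the 24 genes with the largest changes, the effect of time differed between sorafenib and DMSO in the model of all 16 libraries. The log2 fold change with sorafenib minus that with DMSO was 3.84 for Bnip3, 3.17 for Selenbp1, 2.62 for Kbtbd11, 1.09 for Notch3, 2.69 for Pdk1, 1.67 for Sema4g, 1.58 for Atp7b, 2.28 for Rec8, 1.85 for Ankrd37 and 2.63 for P4ha2. For the others it was −1.46 for Mfap4, −3.31 for Ankrd1, −3.89 for Cemip, −3.37 for Ccn2, −1.95 for Ccl2, −2.06 for Lgals3, −3.80 for Saa3, −3.70 for Tagln, −3.91 for Hcn4, −2.98 for Ptprb, −4.18 for Ltbp2, −5.10 for Adcyap1r1 and −2.24 for Vcam1. The genes were chosen for large changes with DMSO, which are subtracted here, so that the choice itself favors differences of the opposite sign.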

How the results depend on the processing

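Every count of called genes stayed within 1.5 times its value under all 20 alternatives. Leaving out 1 library gave 10712 to 11007 called genes, and the other alternatives 9928 to 11323. The split between directions moved most with scaling by total counts, which called 4652 genes higher and 6447 lower, and with an offset for GC content, which called 5886 higher and 4890 lower of 18139 genes with a known GC content. Of the genes called both with and without that offset, 93 had opposite directions. The median log2 fold change of all genes was −0.07 with total counts. Libraries of the same number did not deviate together, with correlations over 10619 genes of 0.08, −0.18, −0.144 and −0.182, and not every library correlated best with its own number. The highest correlation, 0.409, was between replicate 2 at 48 hours and replicate 4 at 7 days, both rich in structural RNA. A pairing by number was thus not seen, but it could be hidden under that content and was not excluded. The replicate block called 11079 genes, 5498 higher and 5581 lower, and with the GC offset 10586, 5790 higher and 4796 lower. Of the 20 highest genes per kb, 9 were shared with the 20 highest by normalized counts. Of the comparisons of single genes with an alternative, 3815 kept their direction and side of the threshold, 34 lost the call, 18 gained it and 3 reversed. Gata4, lower with −0.17, became 0.0584 with the GC offset and 0.0581 with the offset and the replicate block, and Gata6, higher with 0.06, became −0.00177 with total counts and lost its call in 8 more alternatives. The cause was not tested. List counts, followed in both directions, moved by over 1.5 times in 51 comparisons and not in 1789. With the GC offset, with and without the replicate block, lower counts went from 8 to 3 for DNA replication, 5 to 3 for NRF2 targets, 2 to 1 for liver factors, 1 to 0 for ribosome biogenesis and 1 to 2 for YAP targets, and higher ribosomal proteins from 0 to 3. The offset alone also moved higher counts from 2 to 4 for PPAR targets and 0 to 1 for endothelial markers, and lower RNA quality genes from 5 to 3. The offset with the block moved lower interferon genes from 5 to 3. Total counts moved higher respiration genes from 20 to 11 and fatty acid genes from 5 to 3, and lower progenitor markers from 5 to 8 and YAP targets from 1 to 3. DESeq2 moved higher MHC class I genes from 4 to 2, and lower interferon and RNA quality genes from 5 to 3 each and ribosome biogenesis from 1 to 0. The model of all 16 libraries moved higher MHC class I genes from 4 to 2 and fatty acid genes from 5 to 3, and lower RNA quality genes from 5 to 2, ribosome biogenesis from 1 to 0 and YAP targets from 1 to 2, the last also with limma. At least 10 counts in every DMSO library moved higher plasma proteins from 4 to 0, enzymes from 2 to 1 and blood markers from 1 to 0, and lower RNA quality genes from 5 to 3. The 5 libraries low in structural RNA moved higher enzymes from 2 to 1 and blood markers from 1 to 2, and lower MHC class I genes from 3 to 0 and endothelial markers from 1 to 0. Leaving out 1 library gave the other moves, in lists already named here. Depth limits the scarce genes, since 3 counts were worth 2.77 to 3.50 normalized counts. Time and batch cannot be told apart, and no list result was tested as a set.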
